A study of Mus musculus with 20 samples.

Results

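The 10 genes described here encode matrix metalloproteinases, tissue inhibitors of metalloproteinases (TIMPs) and a pair of ADAMTS proteases. They are Mmp2, Mmp9, Mmp11, Mmp14, Mmp19, Timp1, Timp2, Timp3, Adamts4 and Adamts5, listed for their place in follicle rupture and in the remodelling of the corpus luteum. Each symbol was matched to 1 Ensembl gene, and all 10 were among the 54838 genes of the deposited count tables. The list was set by gene family and function, but earlier results of these data were known when it was chosen.

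Ovaries of 20 female mice aged about 77 days were profiled by 3' mRNA sequencing, which reads the end of each polyadenylated transcript. The mice came from the Dummerstorf high-fertility line FL1, selected over many generations for large litters, and from the unselected control line ctrl of the same outbred base. Each line gave 5 libraries in estrus and 5 in diestrus, and estrus is the stage around ovulation while diestrus is the stage of established corpora lutea. The total per library was 5991223 to 10352718 counts, with a median of 6957533. The stage of each mouse was read from vaginal cytology, and fat, tunica albuginea and oviduct were dissected away. In the estrus mice, ovulated oocytes were collected from the oviduct and counted. The labels give all mice as wild type and name no treatment. Both lines are outbred, so mice of a group are not genetically identical, and FL1 is 1 selected line, so that selection and drift cannot be told apart.

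Metalloproteinases cut the proteins of the extracellular matrix and depend on a zinc ion. Most are made as inactive precursors, several are switched on by other proteases such as plasmin or by membrane-bound MMP14, and TIMPs bind and block them. In the ovary the family is known for thinning the follicle wall at ovulation, for remodelling the forming corpus luteum and for its later regression.

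The bases that precede a gene's transcription start are shown for 4 of the genes that had an entry among the promoters used here. Of these, Mmp11, Mmp14 and Timp1 had stronger expression in estrus in FL1 and Timp3 had weaker expression. Mmp2, Mmp19 and Adamts4 were also stronger in estrus in FL1 but had no entry. The sequences are from RefSeq on build GRCm38.p6, 5′ to 3′ on the strand of the gene, and cover the 250 bases before the start, or for Timp3 the first 210 of them. They lie at chr10:75932503-75932752 on the minus strand for Mmp11, at chr14:54431348-54431597 on the plus strand for Mmp14, at chrX:20869916-20870165 on the plus strand for Timp1 and at chr10:86300162-86300371 on the plus strand for Timp3. Capitals mark a match to a GC box (GGGCGG) or to an ETS core (AGGAAG) on either strand.
Mmp11: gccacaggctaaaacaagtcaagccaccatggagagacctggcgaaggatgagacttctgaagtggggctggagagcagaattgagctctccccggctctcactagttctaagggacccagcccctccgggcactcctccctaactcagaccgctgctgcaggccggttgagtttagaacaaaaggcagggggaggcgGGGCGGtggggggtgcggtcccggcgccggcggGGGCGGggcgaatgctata
Mmp14: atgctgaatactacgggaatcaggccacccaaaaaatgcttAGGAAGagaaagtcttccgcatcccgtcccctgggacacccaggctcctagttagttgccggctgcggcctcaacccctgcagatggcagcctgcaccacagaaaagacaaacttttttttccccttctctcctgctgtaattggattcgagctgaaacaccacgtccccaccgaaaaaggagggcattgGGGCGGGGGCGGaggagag
Timp1: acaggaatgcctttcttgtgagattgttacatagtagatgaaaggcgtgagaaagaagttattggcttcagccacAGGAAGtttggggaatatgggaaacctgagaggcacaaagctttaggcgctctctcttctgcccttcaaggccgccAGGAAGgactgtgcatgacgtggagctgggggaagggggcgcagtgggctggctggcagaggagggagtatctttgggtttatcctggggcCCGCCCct
Timp3: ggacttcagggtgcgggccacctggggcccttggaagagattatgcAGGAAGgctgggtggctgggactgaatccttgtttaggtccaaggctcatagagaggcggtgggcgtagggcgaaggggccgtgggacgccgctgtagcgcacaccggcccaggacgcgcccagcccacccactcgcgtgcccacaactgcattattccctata

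All 4 windows of 250 bases held a GC box, and so did that of Timp2, the fifth gene with an entry. Matches in Mmp11 began 52 and 19 bases before the start. In Mmp14 a pair of adjoining GC boxes began 19 and 13 bases before it, in Timp1 the reverse form CCGCCC began 8 bases before it and in Timp3 the reverse form began 15 bases before it, past the printed bases. ETS cores were found once in Mmp14 and in Timp3 and at 2 places in Timp1, and none was found in Mmp11. Neither an AP-1 site (TGANTCA) nor a TATA box (TATAAA) was matched in any of the 5 windows. Among 32851 mouse promoter windows of the same length, 32.7% held the GC box, 29.5% the ETS core, 6.75% the AP-1 site and 12.4% the TATA box on either strand. GENCODE starts 3 of the 5 genes earlier than RefSeq. The windows of Mmp11 and Timp2 lie wholly inside the GENCODE gene models, that of Mmp11 with no base in an exon and that of Timp2 with 203 bases in exons, and the last 40 bases of the Timp3 window, which hold its GC box, are exonic and were left out of the print. These matches describe the letters in the windows. Mmp2, Mmp9, Mmp19, Adamts4 and Adamts5 are given without a sequence.

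Levels are given as CPM, the share of a library's counts scaled to a common total, after TMM normalization, which scales libraries to a common composition. Reads came from the transcript ends and were not divided by length, so levels are compared between libraries and not between genes. A gene was called differentially expressed when the adjusted p of edgeR's quasi-likelihood test, by Benjamini-Hochberg over all genes tested, was at most 0.05. The log2 fold change (log2FC) is followed by its standard error (SE). All 10 genes passed the filter on low counts in each of the 7 comparisons.

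Across the 20 libraries, 3 stood apart and touch values below. Ctrl estrus replicate 5 had a median correlation with its group of 0.938 (all others 0.955 to 0.973) and a granulosa marker sum of 1261 CPM, the lowest of all, beside the highest luteal sum among the estrus libraries. Ctrl diestrus replicate 1 had a theca marker sum of 978 CPM, against 142 to 492 in the other 9 diestrus libraries, and ctrl diestrus replicate 5 had the lowest haemoglobin marker sum, 440 CPM. The labelled tissue was checked against its markers. Granulosa, luteal, stromal, smooth muscle and oocyte markers were present in every library, and the 4 oviduct markers summed to at most 4.78 CPM. The 5 fat markers summed to 17.2 to 45.8 CPM.

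The comparison of the stages asks which of these genes differ between the time around ovulation and the luteal time within each line. In ctrl, 4 of the 10 genes were differentially expressed, 3 stronger in estrus (Mmp2, Mmp11 and Mmp19) and 1 weaker (Adamts5), where 2.85% of 13334 tested genes were (1.78% stronger and 1.06% weaker). In FL1, 7 of the 10 were differentially expressed, where 15.9% of 13350 genes were (7.42% stronger and 8.49% weaker). Of these, Mmp2, Mmp11, Mmp14, Mmp19, Timp1 and Adamts4 were stronger in estrus and Timp3 was weaker. Averaged over the lines in 1 fit of 20 libraries, 7 of the genes rose in estrus and Adamts5 fell, against 15.9% of 14154 genes (8.25% higher and 7.62% lower). Groups without overlap, given for single genes below, made up 4.56% of the tested genes between the stages in ctrl and 12.1% in FL1. The median log2FC of the 10 genes was 0.69 in ctrl and 0.81 in FL1, where the median over all tested genes was -0.00582 and 0.00708. Mmp2, Mmp11 and Mmp19 passed the test in both lines, where 238 of the 12994 genes tested in both did. Of the 10 log2FC, 8 had the same sign in both lines, against 61.5% of these 12994 genes. These lines share no library.

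**Figure D1:**
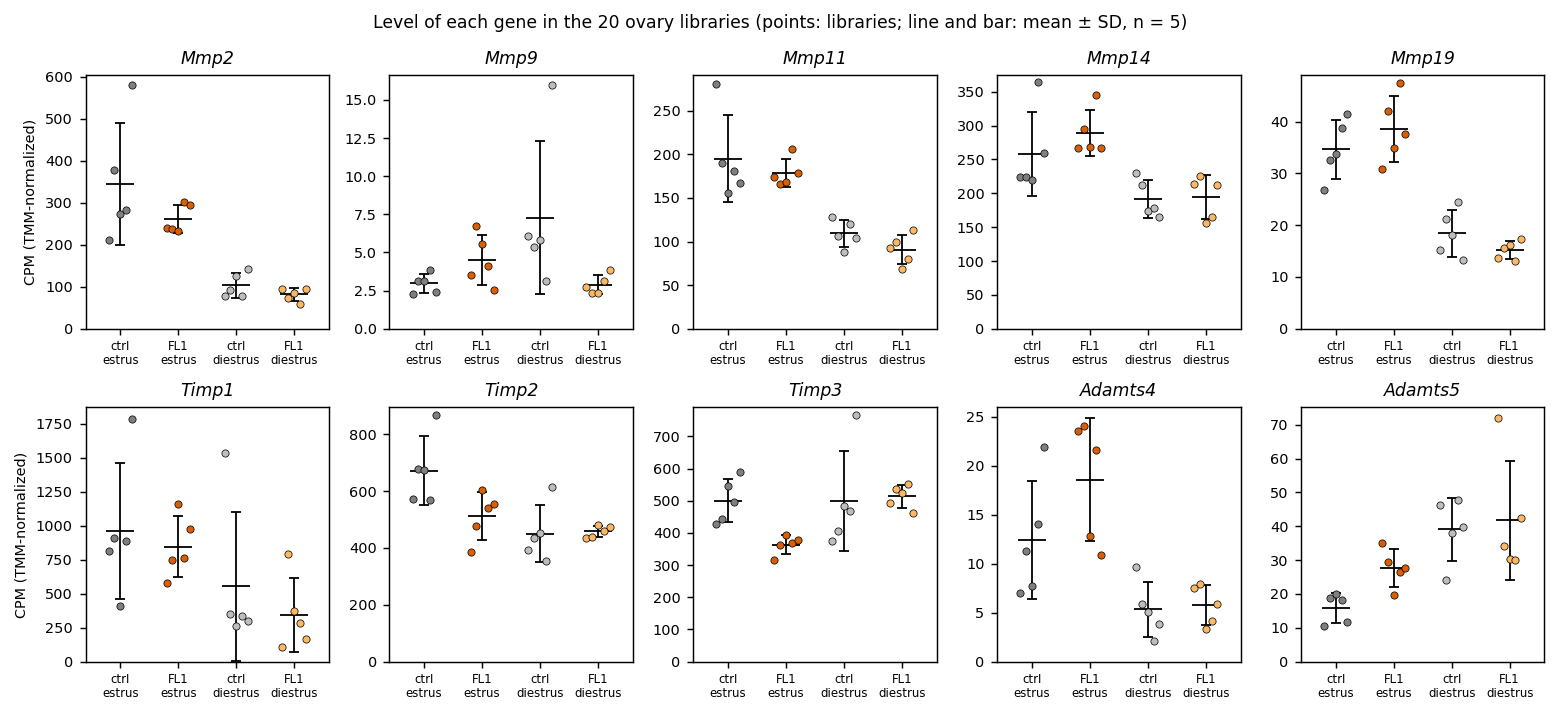
Level of each of the 10 genes in CPM (vertical axis, linear, from 0) in the 20 libraries by group (horizontal axis). Points are libraries, and the line and bar are the mean ± SD of 5 libraries. The 10 estrus values of Mmp2, Mmp11 and Mmp19 sit above the 10 diestrus values, and single high points are seen for Timp1 in ctrl diestrus and Mmp9 in ctrl diestrus.

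Mmp2 encodes gelatinase A, which degrades type IV collagen and denatured collagens and is made mainly by stromal and thecal cells. The ctrl libraries were at 211, 378, 274.1, 282 and 580 CPM in the 5 estrus libraries and at 78.1, 91.1, 127, 78.6 and 142 CPM in the 5 diestrus libraries. The FL1 libraries were at 239, 238, 232, 303 and 295 CPM in estrus and at 95.4, 73.7, 85.9, 59.3 and 94.1 CPM in diestrus. Every estrus library of either line was above every diestrus library, and the highest value was that of ctrl estrus replicate 5. The log2FC was 1.75 (SE 0.27, adjusted p = 0.00417) in ctrl and 1.68 (SE 0.13, adjusted p = 2.19e-07) in FL1, or 3.35-fold and 3.21-fold. Without ctrl estrus replicate 5 and ctrl diestrus replicate 1 the value in ctrl was 1.38 and the gene was still called. Mmp2 lies at chr8:92827291-92853420 on the plus strand of GRCm38.

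Mmp11 encodes stromelysin-3, a metalloproteinase that is activated inside the cell by furin-like enzymes, and it lies at chr10:75923222-75936496 on the minus strand. Its 5 ctrl values were 281, 190, 156, 181 and 167 CPM in estrus and 128, 107, 88.0, 121 and 104 CPM in diestrus. Its 5 FL1 values were 174, 166, 168, 207 and 179 CPM in estrus and 93.0, 99.3, 68.9, 79.9 and 113 CPM in diestrus. The stages did not overlap in either line, and the lowest estrus value overall belonged to a ctrl library. Mmp11 was stronger in estrus by a log2FC of 0.83 (SE 0.16, adjusted p = 0.0152) in ctrl and 0.98 (SE 0.11, adjusted p = 2.56e-05) in FL1.

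Mmp19, at chr10:128790910-128800824 on the plus strand, encodes a metalloproteinase found in blood vessels and in the wall of large follicles. In the ctrl libraries it was at 26.8, 32.6, 33.7, 38.7 and 41.5 CPM in estrus and at 15.1, 21.2, 18.1, 24.5 and 13.2 CPM in diestrus. In FL1 the values were 30.9, 42.0, 34.9, 47.4 and 37.6 CPM in estrus and 13.7, 15.7, 16.2, 13.1 and 17.4 CPM in diestrus. Again no estrus value reached down to a diestrus value. The log2FC was 0.91 (SE 0.18, adjusted p = 0.0187) in ctrl and 1.34 (SE 0.14, adjusted p = 5.77e-06) in FL1. Without ctrl estrus replicate 4 the value in ctrl was 0.87 with an adjusted p of 0.0561, within a range of 0.000362 to 0.0561 over 19 alternatives. An exon of Tmem198b on the opposite strand lies within the last 1000 bases of Mmp19, and the strand setting of the counting is not given in the sources used here.

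Mmp14 encodes a membrane-anchored metalloproteinase that activates the MMP2 precursor together with TIMP2, and it lies at chr14:54431612-54445364 on the plus strand. Its FL1 values were 268, 295, 268, 345 and 267.3 CPM in estrus and 214, 226, 156, 165 and 212 CPM in diestrus. Its ctrl values were 223, 223, 219, 365 and 260 CPM in estrus and 229, 213, 173, 178 and 165 CPM in diestrus. The stages were apart in FL1 and overlapped in ctrl, where ctrl diestrus replicate 1 was above 3 estrus libraries. The log2FC was 0.57 (SE 0.11, adjusted p = 0.00232) in FL1 and 0.43 (SE 0.15, adjusted p = 0.173) in ctrl, where it was 0.27 without ctrl estrus replicate 4. The test of the difference between the lines gave an adjusted p of 0.83. Stretches of 31 bases near the end of its transcripts also occur in transcripts of 441 other genes. No gene shared more than a small part of that end, and an effect on the counts was not tested.

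Mmp9 encodes gelatinase B, a product of neutrophils and macrophages among other cells, and it lies at chr2:164940780-164955850 on the plus strand. It had few counts, 14 to 104 per library. The values were 2.28, 3.14, 3.14, 3.87 and 2.41 CPM in ctrl estrus and 6.06, 5.34, 5.85, 3.10 and 16 CPM in ctrl diestrus. In FL1 they were 3.53, 6.73, 5.56, 4.15 and 2.57 CPM in estrus and 2.74, 2.35, 2.36, 3.12 and 3.85 CPM in diestrus. Ctrl diestrus replicate 5 was far above its group, and both lines overlapped between the stages. The log2FC between the stages was -1.27 (SE 0.40, adjusted p = 0.117) in ctrl and 0.64 (SE 0.32, adjusted p = 0.187) in FL1. Without ctrl diestrus replicate 5 the value in ctrl was -0.78 (adjusted p = 0.23). DESeq2 (0.0363) and 1 fit of 20 libraries (0.0339) called the gene in ctrl, within a range of 0.0339 to 0.251 over 19 alternatives. The difference of these values, the line-by-stage interaction, was 1.92 (SE 0.51, adjusted p = 0.129), and without ctrl diestrus replicate 5 it was 1.42 (adjusted p = 0.158). DESeq2 called it with an adjusted p of 0.0419, the lowest of 28 alternatives that reached up to 0.233. The summed level of 6 neutrophil markers was 1.505 to 2.25 CPM in ctrl diestrus, the group with the highest Mmp9, and 1.48 to 7.45 CPM in ctrl estrus. In FL1 it was 4.00 to 5.74 CPM in estrus and 2.31 to 5.83 CPM in diestrus. Macrophage markers (6 genes) summed to 304 CPM in ctrl diestrus replicate 5 and to 157 to 205 CPM in the other 4 libraries of that group. Their sums were 224 to 339 CPM in ctrl estrus and 272 to 518 CPM in FL1 estrus. In FL1 diestrus, the group with the lowest mean Mmp9, they were 214 to 524 CPM. The part of these markers in the result was not tested.

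Timp1 encodes an inhibitor of most secreted metalloproteinases that is strongly induced in follicles after the gonadotropin surge. It lies at chrX:20870166-20874735 on the plus strand. The level in ctrl was 812, 910, 408, 889 and 1781 CPM in estrus and 1533, 350, 258, 334 and 297 CPM in diestrus. The level in FL1 was 578, 748, 1160, 761 and 975 CPM in estrus and 105, 793, 374, 286 and 162 CPM in diestrus. Ctrl diestrus replicate 1 was above 4 of the 5 ctrl estrus libraries, and FL1 diestrus replicate 2 was above 3 of the 5 FL1 estrus libraries. The log2FC between the stages was 1.29 (SE 0.38, adjusted p = 0.0286) in FL1 and 0.80 (SE 0.49, adjusted p = 0.495) in ctrl. Without ctrl diestrus replicate 1 the value in ctrl was 1.63 (adjusted p = 0.0187), without ctrl estrus replicate 5 it was 0.44, and without FL1 diestrus replicate 2 the value in FL1 was 1.87 (adjusted p = 0.00053).

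The call for Timp1 in FL1 held in 5 of 10 fits that left out a library, and it was lost without FL1 estrus replicate 3 or 5 (adjusted p = 0.0559 and 0.0593) and without FL1 diestrus replicate 3, 4 or 5 (0.058, 0.0704 and 0.065). DESeq2 gave 0.086 and 1 fit of all 20 libraries gave 0.103, and over 18 alternatives the adjusted p ran from 1.21e-07 to 0.103. The average over the lines was 1.05 (SE 0.35, adjusted p = 0.0449), and it held in 4 of 20 such fits. The 2 high diestrus libraries also had the highest smooth muscle marker sums of their groups. Those sums of 5 markers were 1295 CPM in ctrl diestrus replicate 1, against 709 to 903 CPM in the other 4, and 1347 CPM in FL1 diestrus replicate 2, against 822 to 1131 CPM. In estrus the sums were 1173 to 1616 CPM, and their part in the Timp1 values was not tested. In bulk tissue, more cells of a type and more RNA per cell cannot be told apart.

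Timp2 encodes an inhibitor that also serves as the adaptor between MMP14 and the MMP2 precursor, and it lies at chr11:118301069-118355740 on the minus strand. In ctrl it was at 571, 679, 673, 570 and 869 CPM in estrus and at 393, 436, 454, 354 and 614 CPM in diestrus. In FL1 it was at 387, 479, 605, 539 and 553 CPM in estrus and at 437, 440, 480, 459 and 475 CPM in diestrus. The stages overlapped in both lines, in ctrl by the highest diestrus library alone, and FL1 diestrus had the narrowest spread with a CV of 4.33%. The log2FC was 0.58 (SE 0.16, adjusted p = 0.0796) in ctrl and 0.16 (SE 0.10, adjusted p = 0.295) in FL1, and averaged over the lines it was 0.37 (SE 0.10, adjusted p = 0.0115). In ctrl, 7 of 19 alternatives called Timp2, among them DESeq2 (adjusted p = 0.0182) and the fit without ctrl diestrus replicate 5 (0.0235), within a range of 0.0138 to 0.192. In FL1, 1 of 18 did, the fit without FL1 estrus replicate 1 (0.0489), within a range of 0.0489 to 0.525. The gene Cep295nl overlaps Timp2 on the same strand, but no exon of another gene lies within the last 1000 bases of Timp2.

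Timp3 encodes the inhibitor that stays bound to the matrix and also blocks ADAMTS4 and ADAMTS5, and it lies at chr10:86300372-86349506 on the plus strand. In FL1 it was at 314, 362, 395, 368 and 380 CPM in estrus and at 492, 537, 524, 553 and 463 CPM in diestrus. In ctrl it was at 429, 443, 545, 495 and 590 CPM in estrus and at 373, 405, 484, 467 and 768 CPM in diestrus. The FL1 stages were apart, with estrus the lower, while the ctrl stages overlapped over most of their range. Timp3 was weaker in estrus in FL1 with a log2FC of -0.50 (SE 0.08, adjusted p = 0.000563), and in ctrl the value was 0.01 (SE 0.18, adjusted p = 0.995). The difference between these lines was -0.50 (SE 0.21, adjusted p = 0.331), so it did not pass the test of its own. Exon sequence of Syn3 on the opposite strand lies within the last 1000 bases of Timp3.

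Adamts4 encodes aggrecanase-1, which cleaves the proteoglycans versican and aggrecan, and it lies at chr1:171250421-171260637 on the plus strand. In FL1 it was at 23.5, 24.1, 12.8, 21.6 and 10.9 CPM in estrus and at 7.49, 7.97, 3.31, 4.12 and 5.86 CPM in diestrus. In ctrl it was at 6.97, 11.3, 7.71, 14.1 and 21.9 CPM in estrus and at 9.66, 5.88, 5.10, 2.12 and 3.84 CPM in diestrus. FL1 stages were apart, and in ctrl 1 diestrus library lay among the estrus values. The log2FC was 1.68 (SE 0.28, adjusted p = 0.000588) in FL1 and 1.19 (SE 0.39, adjusted p = 0.139) in ctrl, where DESeq2 gave an adjusted p of 0.041.

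Adamts5 encodes aggrecanase-2 and lies at chr16:85856173-85901828 on the minus strand. In ctrl it was at 10.5, 18.9, 19.99, 18.1 and 11.7 CPM in estrus and at 46.2, 24.2, 38.1, 47.7 and 39.6 CPM in diestrus. In FL1 it was at 35.0, 29.4, 19.7, 26.5 and 27.7 CPM in estrus and at 72.1, 34.1, 30.4, 30.1 and 42.3 CPM in diestrus. It was the one gene of the 10 that was weaker in estrus in ctrl by the test, and the ctrl stages did not overlap while 1 FL1 estrus library lay among the diestrus values. The log2FC was -1.30 (SE 0.22, adjusted p = 0.00739) in ctrl and -0.60 (SE 0.22, adjusted p = 0.0743) in FL1, where it was -0.31 without FL1 diestrus replicate 1. In FL1 the blocked fit, DESeq2 and the looser filter called it, within a range of 0.00347 to 0.223 over 18 alternatives.

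**Figure D2:**
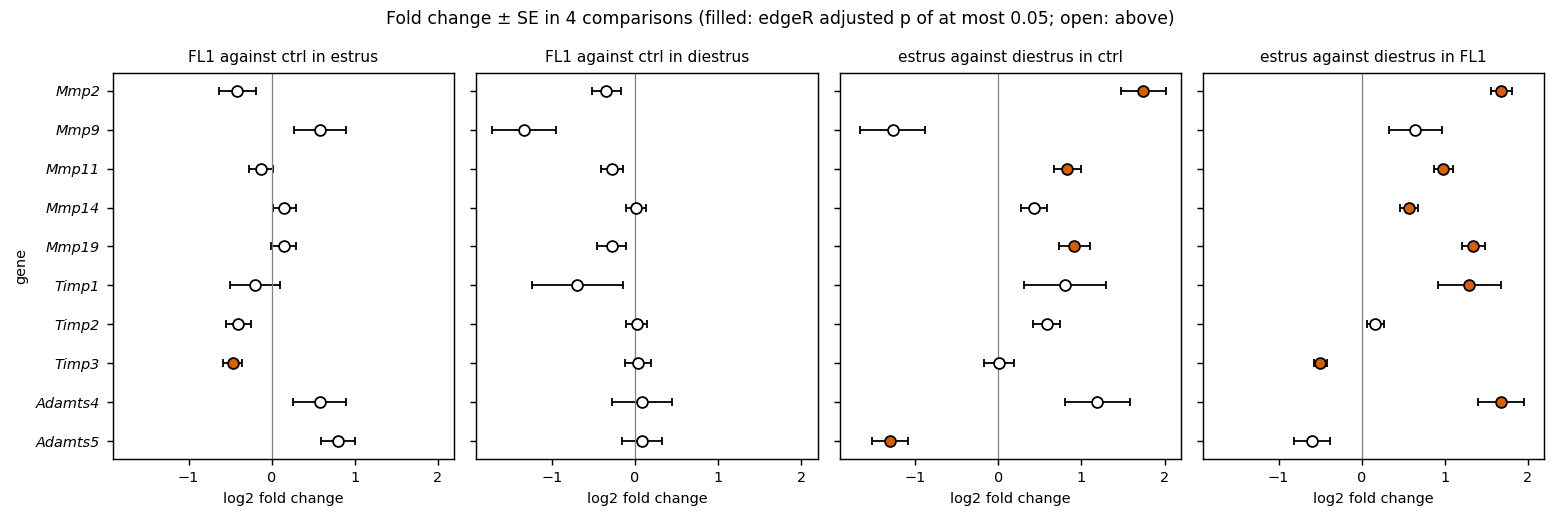
Log2FC (horizontal axis) with its SE for each of the 10 genes (vertical axis) in 4 comparisons; filled points passed edgeR's test at an adjusted p of at most 0.05 and open points did not. Filled points number 1 for the lines in estrus, 0 for the lines in diestrus, 4 for the stages in ctrl and 7 for the stages in FL1.

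The group means put estrus first for most of the genes. For Mmp2, Mmp11 and Mmp19 both estrus groups ranked above both diestrus groups, the lower estrus group and the higher diestrus group did not overlap, and the groups of the same stage overlapped. For Mmp14, Timp1, Timp2 and Adamts4 the estrus means also ranked above the diestrus means, but every pair of neighbours in the order overlapped. For Adamts5 and Timp3 the highest mean belonged to FL1 diestrus (41.8 ± 17.6 and 514 ± 36.1 CPM, SD, n = 5) and for Mmp9 to ctrl diestrus (7.26 ± 5.01 CPM).

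Ratios within a library put a protease beside an inhibitor or a close relative, and only Timp2 was used as the inhibitor. They were compared between libraries only, since 3' priming can differ between genes. The ratio of Mmp2 to Timp2 was 0.499 ± 0.119 in ctrl estrus and 0.518 ± 0.087 in FL1 estrus, against 0.228 ± 0.0313 in ctrl diestrus and 0.178 ± 0.0336 in FL1 diestrus (SD, n = 5). The lowest estrus ratio was 0.369 and the highest diestrus ratio was 0.279, so the stages did not overlap in either line. Timp1 was also higher in estrus in the average over the lines (log2FC 1.05), and no ratio to Timp1 or Timp3 was taken. The values thus describe Mmp2 beside Timp2 and not beside the inhibitors together. How often ratios of other genes are without overlap was not computed. The ratio of Mmp14 to Timp2 overlapped among all 4 groups, with means of 0.397 to 0.575. The ratio of Adamts4 to Adamts5 was 0.858 ± 0.582 in ctrl estrus and 0.67 ± 0.173 in FL1 estrus, and 0.145 ± 0.081 and 0.144 ± 0.0524 in diestrus. Its lowest estrus value was 0.386 and its highest diestrus value 0.243.

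**Figure D3:**
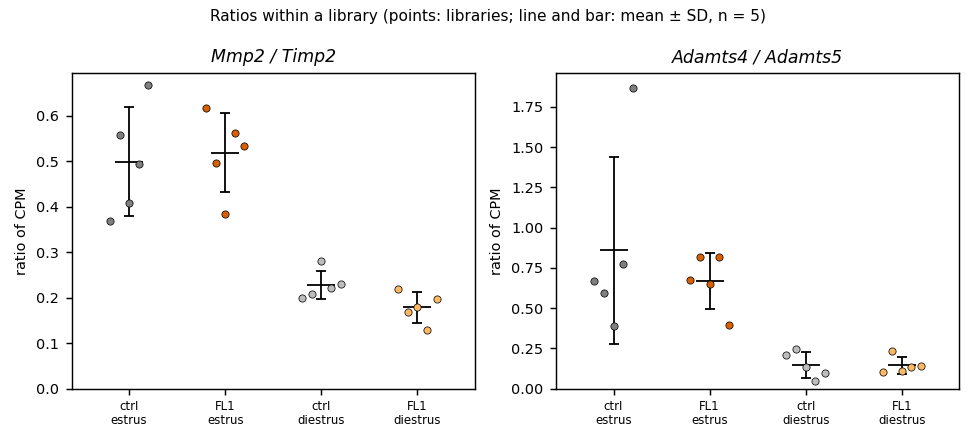
Ratio of CPM within each library (vertical axes, linear, from 0) for Mmp2 over Timp2 and for Adamts4 over Adamts5 in the 4 groups. Points are libraries, and the line and bar are the mean ± SD of 5. In both panels the estrus libraries lie above the diestrus libraries of both lines.

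The comparison of the lines asks whether FL1 ovaries differ from ctrl ovaries at a given stage. In estrus, 1 of the 10 genes was differentially expressed, Timp3, where 2.33% of 13374 genes were and 1.26% were lower in FL1. It was at 314 to 395 CPM in the FL1 estrus libraries and at 429 to 590 CPM in the ctrl estrus libraries, without overlap, and the log2FC was -0.47 (SE 0.11, adjusted p = 0.0453). Groups without overlap made up 4.85% of the tested genes in estrus and 5.40% in diestrus. The call for Timp3 held in 2 of 10 fits that left out a library, and the adjusted p ran from 0.0051 to 0.111 over 19 alternatives while the log2FC kept its sign. It held without ctrl estrus replicate 5, one of the libraries that stood apart (log2FC -0.39, adjusted p = 0.0485), and without ctrl estrus replicate 1. It was lost without ctrl estrus replicate 2 (0.0521), 3 (0.0875) or 4 (0.0772) and without FL1 estrus replicate 1 (0.111), 2 (0.108), 3 (0.0612), 4 (0.105) or 5 (0.0888).

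Adamts5 was next, with a log2FC of 0.80 (SE 0.21, adjusted p = 0.0629). It was at 19.7 to 35.0 CPM in FL1 estrus and at 10.5 to 19.99 CPM in ctrl estrus, and the groups overlapped by 1 library of each. DESeq2 (adjusted p = 0.0107), the looser filter (0.0213) and the fit without FL1 estrus replicate 3 (0.0439) called it, within a range of 0.0107 to 0.162 over 19 alternatives. The other 8 genes had log2FC of -0.41 (Mmp2) to 0.58 (Mmp9) with adjusted p of 0.193 and above. The value for Mmp2 was -0.13 without ctrl estrus replicate 5, one of the libraries that stood apart.

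In diestrus none of the 10 genes passed edgeR's test, where 4.11% of 13259 genes did. Mmp9 had the lowest adjusted p (log2FC -1.34, SE 0.39, adjusted p = 0.0739), and it alone had an unadjusted p under 0.05. DESeq2 (0.0202), the looser filter (0.024), 1 fit of all 20 libraries (0.0392) and the fit without ctrl diestrus replicate 4 (0.034) called it, within a range of 0.0202 to 0.156. Without ctrl diestrus replicate 5 the log2FC of Mmp9 was -0.83 (adjusted p = 0.156). Timp1 had a log2FC of -0.69 (SE 0.55, adjusted p = 0.569), which was 0.15 without ctrl diestrus replicate 1 and -1.27 without FL1 diestrus replicate 2. The other 8 log2FC lay between -0.34 (Mmp2) and 0.09 (Adamts5), and that of Mmp2 was -0.20 without ctrl diestrus replicate 5.

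Averaged over the stages, none of the 10 genes passed edgeR's test between the lines, where 7.56% of 14154 genes did, and 3 had an unadjusted p under 0.05 (Mmp2, Timp3 and Adamts5). DESeq2 also called none in that comparison. The line-by-stage interaction called none by edgeR, where 0.0565% of genes were called, and 4 had an unadjusted p under 0.05 (Mmp9, Timp2, Timp3 and Adamts5), and DESeq2 called Mmp9.

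The spread between mice was wider in ctrl than in FL1 for 8 of the 10 genes in estrus and for 7 in diestrus, by the coefficient of variation of CPM. Over all genes with a value the share was 64.3% of 14130 in estrus and 58.5% of 14134 in diestrus. Mmp2 in estrus had a CV of 41.8% in ctrl and 13.1% in FL1, and Timp3 in diestrus one of 31.4% in ctrl and 7.03% in FL1. In both cases 1 ctrl library, estrus replicate 5 or diestrus replicate 5, was the highest.

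Among 17 other ADAMTS genes, 10 were tested in each stage comparison. Adamts1, a protease of versican that is needed for normal ovulation, was at 77.5 to 134 CPM in ctrl estrus and 22.8 to 43.0 CPM in ctrl diestrus, and at 93.3 to 209 CPM in FL1 estrus and 21.1 to 34.2 CPM in FL1 diestrus. The stages were apart in both lines, and the log2FC was 1.75 (SE 0.19, adjusted p = 0.000483) in ctrl and 2.28 (SE 0.22, adjusted p = 2.76e-06) in FL1. Adamts1 lies at chr16:85793827-85803113 on the same strand as Adamts5, 53059 bases away, with 1 long noncoding RNA gene and no protein-coding gene between them. Adamts1 rose in estrus where Adamts5 fell in the average over the lines (log2FC 2.02 and -0.95).

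In that average 5 of the 10 tested ADAMTS genes rose and 1 fell, beside 8.25% and 7.62% of all tested genes, with a median log2FC of 0.28 (0.000168 over all tested genes). Adamts12 (0.99), Adamts15 (0.99) and Adamts7 (0.58) were among those that rose, and Adamts6 (-1.02) fell. Adamts2, which removes the N-terminal propeptide of fibrillar procollagens, was lower in FL1 in diestrus with a log2FC of -0.59 (SE 0.14, adjusted p = 0.0334). It was at 103 ± 5.33 CPM in FL1 and 153 ± 41.4 CPM in ctrl, without overlap.

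Of 18 other MMP genes, 6 were tested in FL1 between the stages, and of these Mmp10 (stromelysin-2) rose with a log2FC of 2.52 (SE 0.60, adjusted p = 0.00935) while Mmp15, a membrane-type protease, fell by 0.67 (SE 0.21, adjusted p = 0.0416), beside 7.42% and 8.49% of all tested genes. Mmp10 was low, at a mean of 2.39 CPM in FL1 estrus and 0.395 CPM in FL1 diestrus. Mmp12, the macrophage elastase, was stronger in FL1 in diestrus with a log2FC of 2.24 (SE 0.35, adjusted p = 0.00222). It was at 11.0 to 22.1 CPM in FL1 diestrus and 1.499 to 5.88 CPM in ctrl diestrus, without overlap. The 6 macrophage markers summed to 214 to 524 CPM in FL1 diestrus and 157 to 304 CPM in ctrl diestrus. Only Cd68 (log2FC 0.79) and Lyz2 (1.31) of them were called higher in FL1 in diestrus, while Adgre1, Csf1r, C1qa and Mrc1 had values of -0.54 to -0.02, and the median of the 6 was -0.19. Their part in the Mmp12 values was not tested.

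Of 5 other inhibitors, 4 were tested in the average over the lines and 3 were called, Timp4 and Tfpi2 stronger and A2m weaker in estrus, beside 8.25% stronger and 7.62% weaker among all tested genes. Timp4 rose in estrus in ctrl (log2FC 2.32, SE 0.50, adjusted p = 0.0247) and in FL1 (log2FC 1.78, SE 0.34, adjusted p = 0.00186), from means of 1.13 and 2.91 CPM in diestrus to 5.79 and 9.97 CPM in estrus. A2m, the general protease trap alpha-2-macroglobulin, was at 1.23 ± 0.467 CPM in ctrl estrus and 4.30 ± 1.20 CPM in FL1 estrus, without overlap, and was stronger in FL1 with a log2FC of 1.78 (SE 0.36, adjusted p = 0.0186). Within FL1, A2m was weaker in estrus than in diestrus by a log2FC of -1.82 (SE 0.22, adjusted p = 2.84e-05). Tfpi2 rose in estrus in FL1 (log2FC 1.23, SE 0.38, adjusted p = 0.0354). The levels of Timp4 in ctrl diestrus and of A2m in ctrl estrus were low and rest on few counts.

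Of 10 genes whose products activate the proteases or clear them, 8 were tested between the stages in FL1 and 3 rose, beside 7.42% of all tested genes. Among them were Plat, the tissue-type plasminogen activator, with a log2FC of 1.57 (SE 0.18, adjusted p = 1.57e-05), and the clearance receptor Lrp1 with 0.40 (SE 0.10, adjusted p = 0.0133). Between the lines 1 of 9 tested genes was called in the average over the stages, beside 7.56% of all tested genes. This was Serpine2 (protease nexin-1), which was stronger in FL1 by a log2FC of 0.49 (SE 0.10, adjusted p = 0.00267).

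Of 18 genes for matrix proteins that these enzymes cleave, 5 of the 17 tested in ctrl rose in estrus, beside 1.78% of all tested genes, and 10 of the 17 tested in FL1 did, beside 7.42%. In the average 11 of 18 rose, beside 8.25%, with a median log2FC of 0.57 (0.000168 over all tested genes). Col3a1 (type III collagen) rose by a log2FC of 1.24 in ctrl (SE 0.16, adjusted p = 0.00167) and 1.24 in FL1 (SE 0.14, adjusted p = 1.76e-05). Vcan (versican) rose by 1.09 and 1.08, Col1a1 by 1.01 and 1.00, and Col4a1 (basement membrane collagen) by 0.63 and 0.60. Fn1 (fibronectin) rose by 0.94 in FL1, and Bgn (biglycan) by 0.74 in ctrl and 0.51 in FL1.

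The 5 stromal markers, 3 of which are also substrate genes, summed to 1724 to 3441 CPM in estrus and 1326 to 2102 CPM in diestrus. The 9 luteal markers summed to 16657 to 41439 CPM in estrus and 30430 to 52587 CPM in diestrus. Averaged over the lines, 7 of them were called lower in estrus and 1 higher, beside 7.62% and 8.25% of all tested genes. The theca markers Cyp17a1 and Insl3 summed to 4.14 to 38.0 CPM in estrus and 142 to 978 CPM in diestrus. Only 1 of these 2 passed the filter on low counts, and it was called lower in estrus (log2FC -4.42). In the average over the lines all 5 smooth muscle markers were called higher in estrus, with a median log2FC of 0.59. All 5 endothelial markers had lower values in estrus and 3 were called (median -0.38), with sums of 204 to 414 CPM in estrus and 278 to 413 CPM in diestrus. The 5 red blood cell markers were also all lower in value and 4 were called (median -0.95), with sums of 769 to 1670.5 CPM in estrus and 440 to 3542 CPM in diestrus. Of 5 fat markers 4 were tested, all higher in value in estrus (median 1.14), and none was called. Their sums were 17.2 to 45.8 CPM in estrus and 17.7 to 44.9 CPM in diestrus. Of 7 tested granulosa markers 3 were called lower in estrus, and of 5 surface epithelium markers, all higher in value, 1 was called. Most of these levels moved with the stage beside Mmp2, Mmp19, the other called genes and the substrate genes, and their part in those results was not tested. Between the lines 2 of 18 substrate genes were lower in FL1 in the average, where 7.56% of all tested genes were called in either direction, named here after their values were seen: Hspg2 (perlecan) with a log2FC of -0.66 (SE 0.11, adjusted p = 0.000592) and Bgn with -0.33 (SE 0.10, adjusted p = 0.0372).

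Of 12 regulators of ovulation, 9 were tested in the average over the lines. Runx1 (log2FC 1.02), Ereg (1.61), Tnfaip6 (1.61), Btc (0.82) and Edn2 (1.59) rose in estrus and Runx2 (-0.74) fell, that is 5 and 1 of the 9, beside 8.25% and 7.62% of all tested genes. Ereg and Btc encode ligands of the epidermal growth factor receptor, Tnfaip6 a protein that cross-links the hyaluronan matrix of the cumulus, and Edn2 a peptide that contracts the follicle wall.

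**Figure D4:**
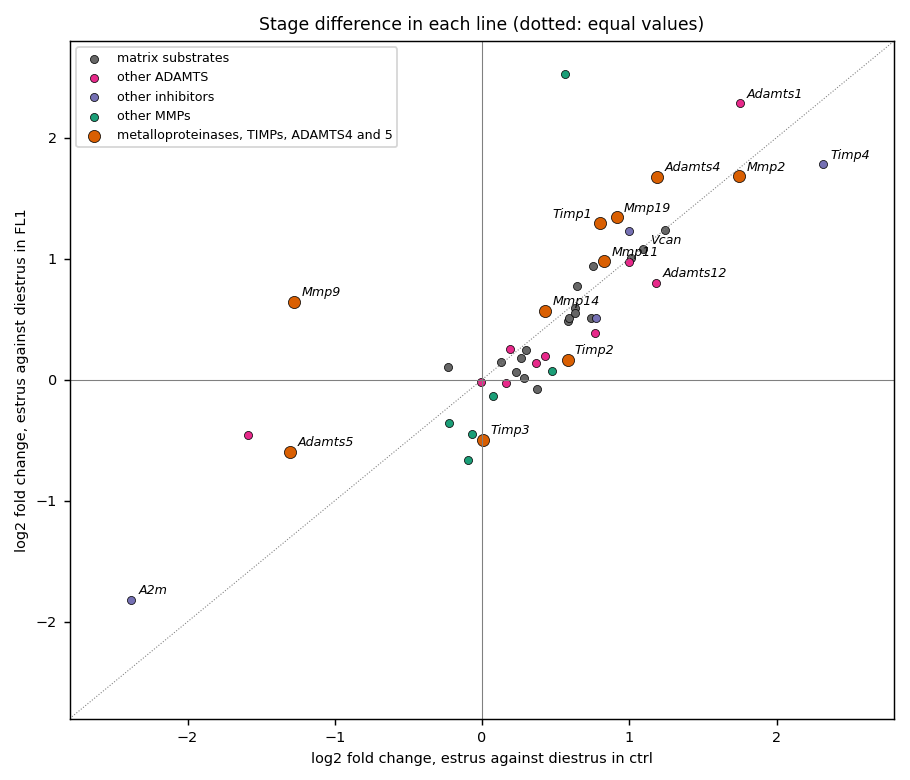
Log2FC of estrus against diestrus in ctrl (horizontal axis) and in FL1 (vertical axis) for the 10 genes (large orange points) and for the tested members of 4 wider lists (small points); the dotted line marks equal values. Most points lie in the upper right part, Adamts5 and A2m lie in the lower left, and Mmp9 lies in the upper left.

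The genes whose log2 CPM followed each of the 10 most closely over the 20 libraries are given as a description, since libraries of 1 stage share much else. For Mmp2 they were Fstl1, Htra3 and Loxl1 (Pearson r = 0.96, 0.96 and 0.95), and with the group means removed r was 0.73, 0.65 and 0.81. For Mmp19 they were 3425401B19Rik, Lgals1 and Lox (0.94, 0.94 and 0.93), and for Mmp14 they were Ctsc, Pbx3 and Arpc1b (0.91, 0.89 and 0.89). Mmp11 was closest to Wnt6, Ndrg4 and Ren1 (0.89, 0.88 and 0.87), and with the group means removed r was 0.47, 0.57 and 0.19. Mmp9 was closest to 1700066M21Rik, Rpp38 and Agbl3 (0.69, 0.65 and 0.65). For the 3 genes closest to each of the 8 others, r with the group means removed was 0.49 to 0.87.

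Timp1 was closest to Cdkn1a, Actg2 and Cnn1 (0.90, 0.84 and 0.82), of which the last is among the smooth muscle markers and Actg2 encodes a smooth muscle actin. The genes closest to Timp2 included Wasf2 and Itpripl2 (0.90 and 0.88), and Timp3 was closest to Ddx6, Ids and 4932438A13Rik (0.88, 0.82 and 0.82). Adamts4 was closest to Ncam1, Thsd7b and Blmh (0.89, 0.89 and 0.88) and Adamts5 to Tex14, Rgs13 and Phlda1 (0.90, 0.87 and 0.86).

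Among the 10 genes themselves, Mmp2 and Mmp19 had r = 0.86 and Mmp14 and Adamts4 r = 0.87 over the 20 libraries. With the group means removed these were 0.19 and 0.66. The pair with the highest r after the group means were removed was Timp2 and Timp3 (0.74, and 0.38 before), followed by Mmp2 and Timp2 (0.70, and 0.76 before).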

How the data were processed

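Ovaries of 5 mice per group were sequenced from libraries of a 3' kit, QuantSeq forward. The authors deposited unnormalized counts of reads per Ensembl gene, 1 table per library, made after trimming and alignment to GRCm38; the submitters' processing notes also name STAR and Cuffdiff. The counting tool and its strand setting are not given in the sources used here, so reads of a gene and of an opposite-strand neighbour may not be separated.

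Line, stage and number of each library came from the sample titles. The source name reads FL1 for all libraries and was not used. The counts were tested with edgeR 4.0.16 (glmQLFit and glmQLFTest, R 4.3.3, limma 3.58.1) with TMM normalization and filterByExpr at a minimum count of 10, and p-values were adjusted by Benjamini-Hochberg over all genes tested. Lines were compared within 10 libraries of a stage, stages within 10 libraries of a line, and interaction and averages in 1 fit of 20 libraries. The SE is the log2FC divided by the square root of F. Log2 CPM used a prior count of 2. Symbols and positions came from GENCODE M21, promoters from RefSeq, and Python 3.11.15 with matplotlib 3.10.9 drew the plots.

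The 10 genes and the wider lists were chosen with earlier results of these data known. Named beside the 10 were up to 6 differentially expressed genes per list by smallest p, and the 3 genes most alike each gene. Markers were named for the cell types they define. The 20 libraries had a median of 6957533 counts, and no 2 libraries of a group agreed within sampling noise. Among the 10 genes, depth limits Mmp9 (14 to 104 counts) and Adamts4 (13 to 161 counts) most. Of the genes named beside them, Timp4, A2m and Mmp10 had lower means still in at least 1 group. Nothing in the labels says how mice relate. The p-values set a difference against the spread between these mice and take the mice as independent, so kinship within a line is not accounted for. On counts simulated for the lines in estrus (13374 genes, 200 changed by 1.5 on the log2 scale), the test recovered 86.5% of the changed genes. It also called 11 unchanged genes. For the interaction (14154 genes) it recovered 65.5% and called 7 unchanged genes. The line differences of the 10 genes in estrus were at most 0.80 in size (Adamts5). Changes of that size were not simulated, so these shares do not tell how often the test would find them. Alternatives were RLE size factors, DESeq2 1.42.0, limma-voom with sample weights, 2 other count filters, the replicate number as a block, 1 fit of 20 libraries and each library left out, and, chosen after seeing the data, library totals without TMM and leaving out ctrl estrus replicate 5 with ctrl diestrus replicate 1. Some genes that the naming rules would have listed are not reported here.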

Additional observations from a re-analysis of the deposited data

Results flagged for a closer look

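In 40 sets of 5 libraries, the 10 genes in each of the 4 groups, the gap between an extreme library and its nearest neighbour was set against the whole range of its set (Dixon's ratio). For normally distributed values, chance puts about 1 set in 20 past the critical value. Here 5 sets were past it, all in ctrl and all at the high end. The ratio was taken on CPM and not on log2 CPM, and whether CPM values are normally distributed was not tested. The 10 sets of a group also share the same 5 libraries. The 5 sets are therefore listed as a description and not read as more than chance would give.

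Timp1 in ctrl diestrus replicate 1 had a ratio of 0.928, at 1533 CPM against 350 CPM for the next library. Mmp9 in ctrl diestrus replicate 5 had a ratio of 0.77, at 16 against 6.06 CPM. Timp3 in the same library had a ratio of 0.721, at 768 against 484 CPM. Mmp11 in ctrl estrus replicate 1 had a ratio of 0.723, at 281 against 190 CPM, and Mmp14 in ctrl estrus replicate 4 had a ratio of 0.721, at 365 against 260 CPM.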

How the results depend on the processing

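Over 1590 values of the 10 genes under the alternatives, 1527 stayed on their side of the threshold, 37 lost a call, 26 gained one and none of the called values changed sign, while 38 values that were not called changed sign. The number of the 10 genes called was 2 by DESeq2 and with the looser filter for the lines in estrus and 0 with the stricter filter, with the replicate block and in 1 fit of 20 libraries. For the lines in diestrus it was 1 by DESeq2, with the looser filter and in 1 fit of 20 libraries. By DESeq2 it was 7 for the stages in ctrl and 1 for the interaction. Leaving out 1 library gave 0 to 1 for the lines in estrus, 0 to 1 for those in diestrus, 3 to 5 for the stages in ctrl, 6 to 8 in FL1, 7 to 9 in the average over the lines, and 0 for the interaction and for the lines averaged over the stages. The cause was not tested.

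Over all genes the calls were 671 by DESeq2, 477 with the looser filter and 531 in 1 fit of 20 libraries for the lines in estrus (311 in the main test), and 894 by DESeq2 and 846 with the looser filter in diestrus (545). For the stages in ctrl (380) they were 771 by DESeq2, 653 by limma-voom, 909 in 1 fit of 20 libraries and 667 without ctrl estrus replicate 5 and ctrl diestrus replicate 1. For the interaction (8) they were 148 by DESeq2, 31 by limma-voom, 17 with the looser filter and 18 without that pair. Leaving out 1 library gave 175 to 418 for the lines in estrus, 349 to 594 for those in diestrus, 176 to 516 for the stages in ctrl, 1582 to 2316 in FL1 (2123), 0 to 15 for the interaction, 856 to 1150 for the lines averaged (1070) and 1918 to 2540 for the stages averaged (2245). The count for the stages in ctrl was 243 and 189 without ctrl estrus replicates 2 and 4 and 235, 223 and 176 without ctrl diestrus replicates 2, 3 and 4, that for the lines in estrus was 182, 175, 189 and 178 without FL1 estrus replicates 1, 2, 4 and 5, and that for the lines in diestrus was 349 without FL1 diestrus replicate 4. Without TMM, the split of higher and lower calls between the stages moved from 990 and 1133 to 1375 and 830 in FL1, from 238 and 142 to 297 and 111 in ctrl, and from 1167 and 1078 to 1531 and 762 in the average, with a median shift of all genes of at most 0.0676.

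Same-numbered libraries are different mice and did not deviate together (r of -0.093 to 0.126), so the numbers do not pair the libraries. With the replicate block, Timp3 between the lines in estrus lost its call (adjusted p = 0.052), as did Timp1 averaged over the lines (0.0566), and Timp2 in ctrl (0.0211) and Adamts5 in FL1 (0.0187) between the stages gained one.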

Other observations

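Mmp3, a stromelysin, and the collagenase genes Mmp8 and Mmp13 were near the limit of detection in every group. Mmp3 was at 0 to 1.18 CPM, Mmp8 at 0 to 1.92 CPM and Mmp13 at 0 to 1.89 CPM over the 20 libraries, where 3 counts correspond to 0.29 to 0.501 CPM. These genes were named after their values were seen.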
